A study of Homo sapiens and Mus musculus with 13 samples.

Results

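The genes described here are 9 mouse transcription factor genes around HOXB8, the homeobox protein that keeps these cells growing: Hoxb8, Hoxb7 and Hoxb4 of the Hoxb cluster, Meis1, Meis2 and Meis3, and Pbx2, Pbx3 and Pknox1. They were taken by gene symbol, 9 of the 37991 genes in the mouse tables, and all 9 symbols were found once. RNA was sequenced from a mouse haematopoietic progenitor line immortalized by HOXB8, as 3 clones, each grown from 1 cell and carrying an NPM1c knock-in (12, 18 and 4 by sample title), and as 2 libraries of the parental line, which the labels call wild-type. NPM1c is the leukaemia form of nucleophosmin, a nucleolar chaperone that in this form accumulates in the cytoplasm, and the series design describes the edit as a CRISPR/Cas9 knock-in of NPM1ca-GFP. Both groups carry the HOXB8 immortalization and were kept, per the labels' protocols, in medium with stem cell factor and beta-estradiol. The labels name no drug treatment of these cells and no single-cell clone without the knock-in, so the effects of cloning and of the knock-in cannot be told apart. The comparison asks whether the HOX protein genes, and the cofactors that HOX proteins bind DNA with, differ once NPM1c is present.

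HOX proteins are homeodomain transcription factors whose genes lie in clusters and are read out in stem and progenitor cells, then silenced as blood cells mature. Alone they bind DNA weakly. PBX and MEIS proteins, together with PKNOX and TGIF proteins the TALE class of homeodomain factors, form complexes with them on DNA, PBX as the direct partner of many HOX proteins and MEIS or PKNOX as the partner that brings PBX into the nucleus. In acute myeloid leukaemia with NPM1c, HOXA and HOXB genes and MEIS1 are typically high, and MEIS1 together with a HOX protein transforms progenitors in mice.

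The values, here called normalized read counts, are counts of reads after the authors scaled each library by its size factor. A library's smallest value is worth 1 read, and every value was a whole multiple of it, so the reads behind each value are known: 12235174, 9427149 and 7358340 in all for clones 12, 18 and 4, and 9728260 and 99557475 for parental replicates 1 and 2. Npm1, the targeted gene, was at 15141, 14144 and 14305 in clones 12, 18 and 4 and at 25695 and 25714 in the parental libraries (log2 difference -0.82, SE 0.0673, adjusted p = 0.000533, limma). It was lower in every clone. The sequence of the knock-in is not given in the labels, so whether reads of its transcript are counted on Npm1 is not known. Of the 9 progenitor markers, Kit was at 5263 to 8571, Cd34 at 14738 to 17793 and Ptprc at 7217 to 13681 over the 5 libraries, so all 3 were abundant. Lymphoid markers were mixed. Ebf1, a B lineage factor, was at 719.6 to 1337 by its better-read identifier and at 3.17 to 22.6 by the other. Lck, a lymphocyte kinase, was at 55.4 to 83.2, while Cd3e of T cells and Ms4a1 of B cells had no read. The labels do not say whether both parental libraries had a culture of their own, so p-values measure only the spread between these 5 libraries, which may in part be technical.

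None of the 9 genes passed the test for a difference between clones and parental cells. The test was limma on log2(normalized read count + 1), over the 13132 genes with a mean of at least 10, at an adjusted p under 0.05. Of the 7 members abundant enough to test, 0 were called higher and 0 lower, beside 7.51% and 8.49% of all tested genes (16.0% together). The same 7 held 2 with an unadjusted p under 0.05, Hoxb7 and Meis3, beside 31.1% of all tested genes. With count tests on the recovered reads of the same genes, edgeR and DESeq2 each called 1 member, Meis3. The median log2 difference over the 7 was -0.17, beside 0.01 over all tested genes. Clones and parental libraries did not overlap for 3 of the 7, Hoxb7 and Pknox1 below and Meis3 above, beside 25.8% of all tested genes with every clone below, 24.5% with every clone above and 50.2% in either direction. Hoxb4 and Meis2 were under the minimum and were not tested. In bulk RNA, fewer cells of a type and less RNA per cell cannot be told apart.

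**Figure D1:**
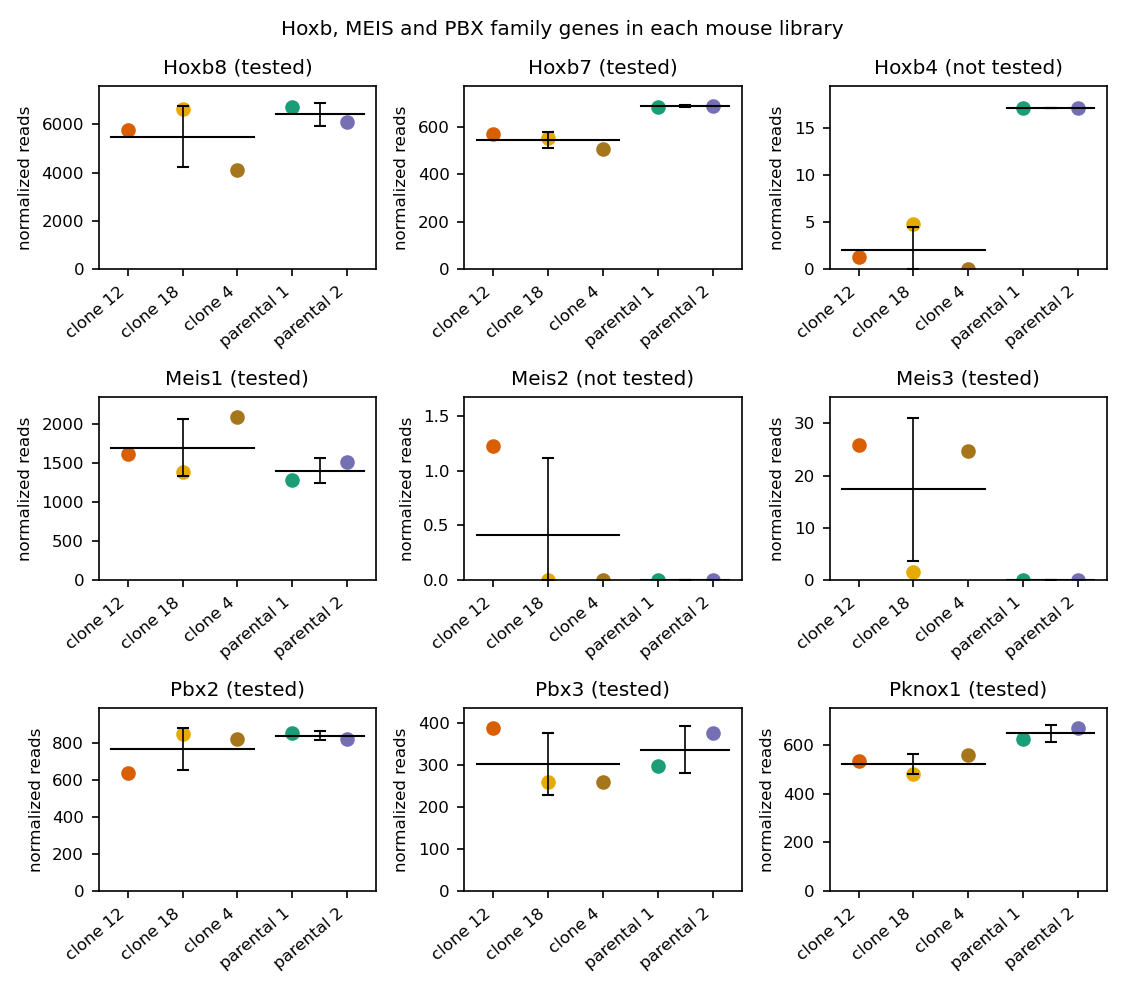
Normalized read count (vertical axis, linear, starting at 0, its own scale per panel) of each of the 9 genes in clones 12, 18 and 4 and in parental replicates 1 and 2; points are libraries, horizontal lines group means and bars SD (stopped at 0). Hoxb8, Meis1, Pbx2 and Pbx3 overlap between the groups, Hoxb7, Hoxb4 and Pknox1 lie lower in every clone, and Meis3 is at 25.9 and 24.6 in clones 12 and 4 but at 1.59 in clone 18.

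Among the HOX genes, Hoxb8 is the immortalizing factor and the most read of the 9 genes in every library. Its normalized read count was 5745, 6629 and 4101 in clones 12, 18 and 4, and 6732 and 6080 in the parental libraries. Clone 18 lay between the parental libraries, clone 12 below both, and clone 4 lowest of all. The log2 difference, clones minus parental, was -0.25 (SE 0.199, 95% interval -0.73 to 0.23, adjusted p = 0.438, limma). This interval runs from well below the parental level to slightly above it, so a moderate fall in Hoxb8 was not shown, and the interval allows one. With 1 value per gene, reads from the introduced Hoxb8 and from the endogenous locus cannot be told apart.

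Hoxb7, which lies next to Hoxb8 in the cluster, was at 571.2, 556.4 and 508.8 in clones 12, 18 and 4 and at 685.2 and 691.4 in the parental libraries. All 3 clones were below both parental libraries, and clone 4 was again the lowest. The log2 difference was -0.34 (SE 0.125, 95% interval -0.63 to -0.05), with an unadjusted p of 0.0285 and an adjusted p of 0.113 (limma), so the difference did not pass across all genes. Among the 16 alternative analyses of Hoxb7 the log2 difference stayed between -0.37 and -0.29, and the adjusted p between 0.0739 and 0.257, where limma was the test in all but 3 that used edgeR or DESeq2.

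Hoxb4, a HOX protein known for expanding blood stem cells, had few reads. It was counted 1, 3 and 0 times in clones 12, 18 and 4, at normalized read counts of 1.23, 4.76 and 0, and 11 and 112 times in parental replicates 1 and 2, at 17.1 in both. Every clone lay below both parental libraries. Pooled over each group, Hoxb4 was 8.25 times lower in the clones, with an exact 95% counting interval of 3.14 to 30.8 that covers counting error only. The ratio ranged from 6.17 without clone 4 to 22.2 without clone 18, whose 3 reads are most of the clones' total of 4. With no minimum on the mean, limma gave Hoxb4 a log2 difference of -2.95 (adjusted p = 0.0962). With the minimum of 10 kept, Hoxb4 passed it only when clone 4, which had no read of it, was left out. There limma gave -2.34 (adjusted p = 0.0576). Among every gene with a read, edgeR gave -3.03 (adjusted p = 0.00129), an analysis chosen after the data were seen. Whether Hoxb4 is called therefore rests on the test used.

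The rest of the cluster was nearly silent. Hoxb3, the neighbour of Hoxb4, had no read in any clone and 4 and 25 reads in parental replicates 1 and 2, at 6.21 and 3.82. That makes it at least 2.59 times lower in the clones with 3 reads over the group as the floor, and at least 1.503 times without clone 12 or 3.999 times without parental replicate 2. The antisense gene Hoxb3os had 12 reads, all in parental replicate 2, and without a stated use of strand its reads cannot be told apart from those of Hoxb3. Hoxb1, Hoxb2, Hoxb5, Hoxb6, Hoxb9 and Hoxb13 had no read in any of the 5 libraries, although parental replicate 2 alone held 99557475. With 3 reads as the limit that a count of 0 allows, their level in that library was under 0.458. The other clusters were as low. Hoxa2 and Hoxa7 had 1 read each in the clones, both in clone 12, Hoxa7 and Hoxd8 had 1 read each in the parental libraries, and no Hoxc gene had any. Below Hoxb8 and Hoxb7, the HOX reads of the parental cells were thus those of Hoxb4 and Hoxb3, apart from these 2 single reads.

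Meis1, the HOX partner most often tied to leukaemia, was at 1619, 1384 and 2099 in clones 12, 18 and 4 and at 1290 and 1519 in the parental libraries. Clone 18 lay between the parental libraries, while clones 12 and 4 were above both. The log2 difference was 0.26 (SE 0.18, 95% interval -0.16 to 0.68, adjusted p = 0.366, limma). The order of the clones was the reverse of that for Hoxb8: clone 4 was lowest in Hoxb8 and highest in Meis1, and clone 18 highest in Hoxb8 and lowest in Meis1. With 3 clones this is a description only.

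Meis2 and Meis3, close relatives of Meis1, were hardly read in the parental cells. Meis2 had 1 read in clone 12 and none in the other 4 libraries, a single read from which no difference can be taken. Meis3 was counted 21, 1 and 12 times in clones 12, 18 and 4, at normalized read counts of 25.9, 1.59 and 24.6, and not once in either parental library. Clones 12 and 4 were alike within counting error (exact 95% intervals of 16.0 to 39.5 and 12.7 to 43.0), and the interval of clone 18, 0.0401 to 8.83, lay below both. Pooled over the clones, Meis3 was at least 42.2 times higher than in the parental cells, with the floor again set at 3 reads over the group. That bound rested on the deep parental replicate 2, without which it was 3.78, and it was 60.9 without clone 18. On the log2(value + 1) scale, where the fitted value depends on the pseudocount since the parental libraries had no read, the difference was 3.60 (SE 1.22, 95% interval 0.76 to 6.44), and its adjusted p of 0.0882 did not pass (limma).

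The call for Meis3 depended on the test and on clone 18. With edgeR on the recovered reads of the same genes its adjusted p was 0.0273, with DESeq2 0.000756, and with limma without clone 18 it was 0.0149. Over its 13 alternative analyses the adjusted p ran from 3.23e-07 (edgeR over every gene with a read) to 0.221 (limma without parental replicate 2). Meis3 passed the minimum only through the clones that read it, at a mean over 5 libraries just above 10, and without clone 12 or 4 it fell under the minimum. The tested genes whose centred profile over the 5 libraries was most like that of Meis3 were Eda2r, Tmem9 and Glb1l2, with root mean square differences of 0.35, 0.45 and 0.65 in log2. Glb1l2, a better-read gene, was at 291.8, 72.9 and 318.0 in clones 12, 18 and 4 and at 24.9 and 31.3 in the parental libraries, with clone 18 again the lowest clone.

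**Figure D2:**
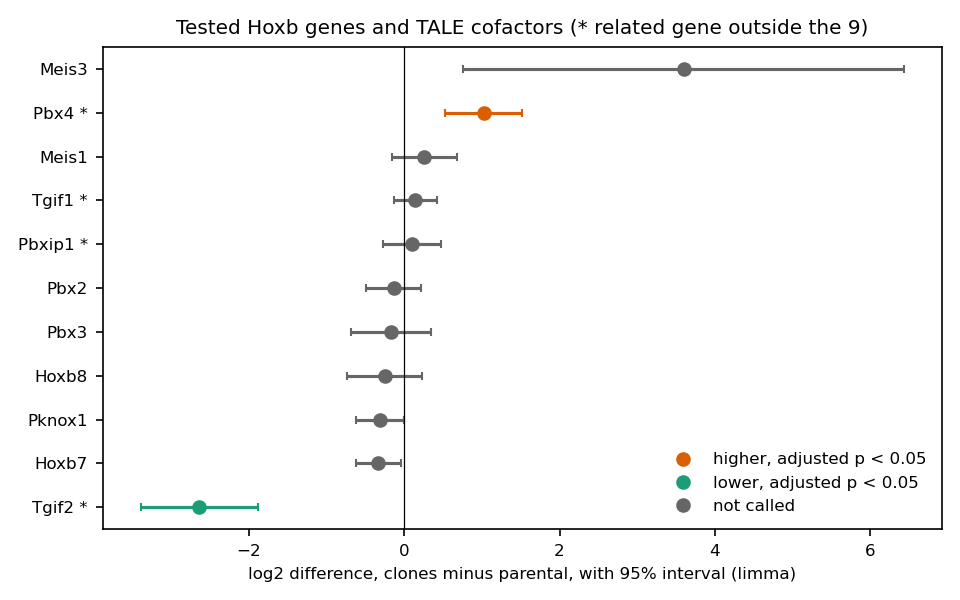
Log2 difference, clones minus parental, of log2(normalized read count + 1) (horizontal axis) for the tested Hoxb genes and TALE cofactors, with 95% intervals from limma; an asterisk marks a related gene outside the 9. The intervals of 5 of the 7 tested members include 0, those of Hoxb7 and Meis3 do not although neither was called, and Pbx4 and Tgif2 were called.

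Neither PBX member passed the test. Pbx2, a broadly expressed PBX protein, was at 636.5, 846.5 and 820.6 in clones 12, 18 and 4 and at 856.1 and 820.6 in the parental libraries. Clone 12 was the lowest, and the other clones lay within or just at the edge of the parental range. The log2 difference was -0.14 (SE 0.152, 95% interval -0.49 to 0.22, adjusted p = 0.573, limma). Pbx3, the PBX protein linked to HOXA9 in leukaemia, was at 389.0, 260.0 and 258.5 in clones 12, 18 and 4 and at 296.8 and 376.3 in the parental libraries. Here clone 12 was the highest of all 5 and the other 2 clones were the lowest. The log2 difference was -0.17 (SE 0.224, 95% interval -0.69 to 0.35, adjusted p = 0.638, limma), and without parental replicate 2 it was 0.00021.

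Pknox1 (also called PREP1), which like MEIS pairs with PBX, was at 534.3, 480.3 and 560.1 in clones 12, 18 and 4 and at 626.1 and 673.4 in the parental libraries. All 3 clones were below both parental libraries. The log2 difference was -0.31 (SE 0.133, 95% interval -0.62 to 0.0002), with an unadjusted p of 0.0501 and an adjusted p of 0.161 (limma). Its size was close to that of Hoxb7, and neither passed.

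The members differed in how far the clones spread. Among clones the coefficient of variation was 23.4% for Hoxb8, 21.4% for Meis1 and 24.8% for Pbx3, against 1.78%, 3.10% and 7.57% from counting alone. For Hoxb7 it was 5.98% and for Pknox1 7.75%, close to the 5.49% and 5.56% that counting gives. For Pbx2 it was 14.9% against 4.59% from counting. For Meis3, with 21, 1 and 12 reads in clones 12, 18 and 4, it was 78.8%. The counting figure, the root mean of 1 over the reads of each clone, was 61.4% there. Most of that figure comes from the single read of clone 18, so it does not place the Meis3 spread near counting error. The exact interval of clone 18 lay below those of clones 12 and 4. Over all genes the clones differed beyond counting noise, with chi-square values of 6.11 to 11.4 per degree of freedom. Of all tested genes, 80.6% had a lower coefficient of variation among clones than Hoxb8, 78.0% than Meis1, 82.2% than Pbx3, 97.6% than Meis3, 63.3% than Pbx2, 31.7% than Pknox1 and 21.5% than Hoxb7. The tested genes whose profile over the 5 libraries was most like that of Hoxb8 were Syce2, Urm1 and Sema6b, with root mean square differences of 0.06 each in log2, and all 3 were lowest in clone 4.

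**Figure D3:**
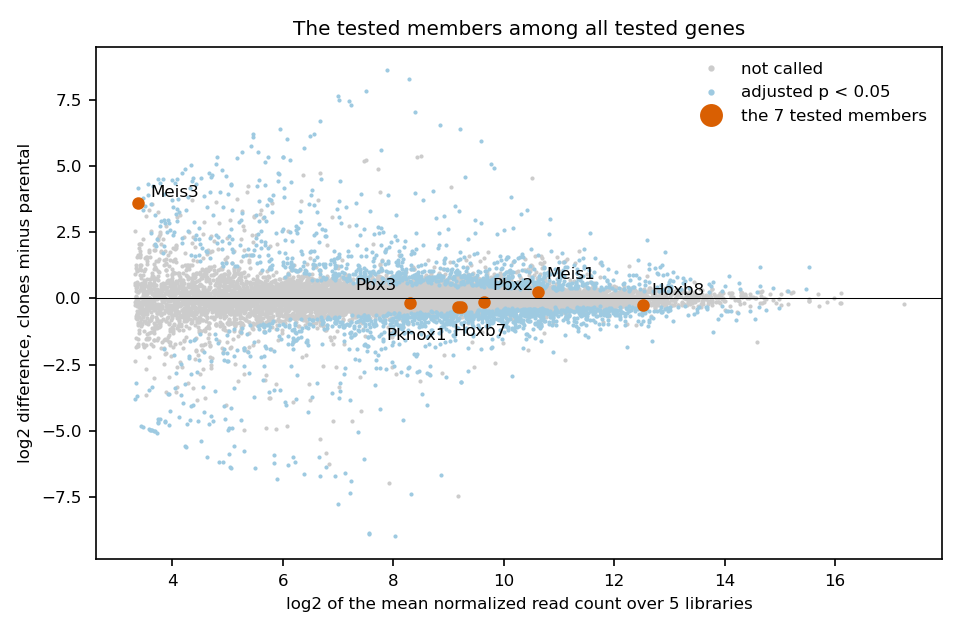
Log2 difference, clones minus parental (vertical axis), against log2 of the mean normalized read count over the 5 libraries (horizontal axis) for all 13132 tested genes, with the 7 tested members in orange and called genes in blue. Apart from Meis3, at 3.60 and near the minimum of 10, the tested members lie between -0.34 and 0.26.

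Of the wider TALE list of 12 genes, which includes the MEIS and PBX members, 9 were tested, with 1 higher, 1 lower and 7 not called, beside 7.51% higher and 8.49% lower over all tested genes, so the count is close to that of the background. Both called genes lie outside the 9 described so far. Pbx4, a PBX protein best known from the testis, was at 437.0, 540.5 and 521.1 in clones 12, 18 and 4 and at 195.8 and 303.7 in the parental libraries, so every clone was above both. It was 2.04-fold higher (log2 difference 1.03, SE 0.213, adjusted p = 0.0171, limma), a call lost without clone 18 (adjusted p = 0.0555), with no minimum (0.0551) and without limma's trend and robust options (0.0563), in a range of 1.40e-05 to 0.0563 over its alternatives. Tgif2, a TALE repressor of TGF-beta signalling, was at 65.2, 106.2 and 47.2 in clones 12, 18 and 4 and at 427.3 and 441.1 in the parental libraries. It was 6.22-fold lower (log2 difference -2.64, SE 0.321, adjusted p = 0.00274, limma), and it was called lower in all 16 alternatives.

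Its close relative Tgif1 was at 1858, 1921 and 2296 in clones 12, 18 and 4, against parental values of 1728 and 1925, overlapping, with a log2 difference of 0.14 (adjusted p = 0.451, limma). Pbxip1, which binds PBX proteins and keeps them from DNA, was at 854.4, 727.6 and 869.8 in clones 12, 18 and 4, against parental values of 876.3 and 655.9 (log2 difference 0.10, adjusted p = 0.694, limma), and -0.11 without parental replicate 2. Pknox2, a relative of Pknox1, had no read in any library.

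Genes reported as targets of HOX proteins or MEIS1 in blood and leukaemia moved both ways. Of 18 tested identifiers of the 18 genes on that list, 5 were higher, 4 lower and 9 not called, beside 7.51% higher and 8.49% lower over all tested genes, with a median log2 difference of 0.24 beside 0.01 over all tested genes. Eya1 had no read, and Sox4 has 2 identifiers. The higher genes were Ccnd1, Hlf, Msi2, Sox4 and Myb. Ccnd1, the gene of cyclin D1, was at 241.3, 310.7 and 533.4 in clones 12, 18 and 4 and at 4.66 and 7.94 in the parental libraries, 48.2-fold higher (log2 difference 5.59, SE 0.373, adjusted p = 0.000306, limma). Msi2, an RNA-binding protein of stem cells, was 1.74-fold higher, while Hlf, which marks blood stem cells, was 1.70-fold higher.

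The smaller rises were those of Sox4 (1.35-fold), a progenitor transcription factor, and Myb (1.27-fold), which keeps progenitors dividing. The other Sox4 identifier, with fewer reads, was not called (1.14-fold, adjusted p = 0.566, limma), and its groups overlapped. The lower genes were Mef2c, Hif1a, Flt3 and Erg. Mef2c, a myeloid and lymphoid factor, was at 411.7 and 531.4 in parental replicates 1 and 2 and had not a single read in any clone, at least 335-fold lower with 3 reads over the group as the floor (194-fold without clone 12). Hif1a, the oxygen-sensing factor, was 1.47-fold lower, Flt3, a progenitor cytokine receptor, 1.44-fold, and Erg, an ETS factor of stem cells, 1.39-fold. The calls for Ccnd1, Hlf, Msi2 and Mef2c held in all 16 alternatives, while those for Sox4, Myb, Hif1a, Flt3 and Erg were each lost in 2 to 7 of them. The counts rested in part on clone 12, without which 3 were higher and 2 lower, and on parental replicate 2, without which 3 were higher and 1 lower.

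**Figure D4:**
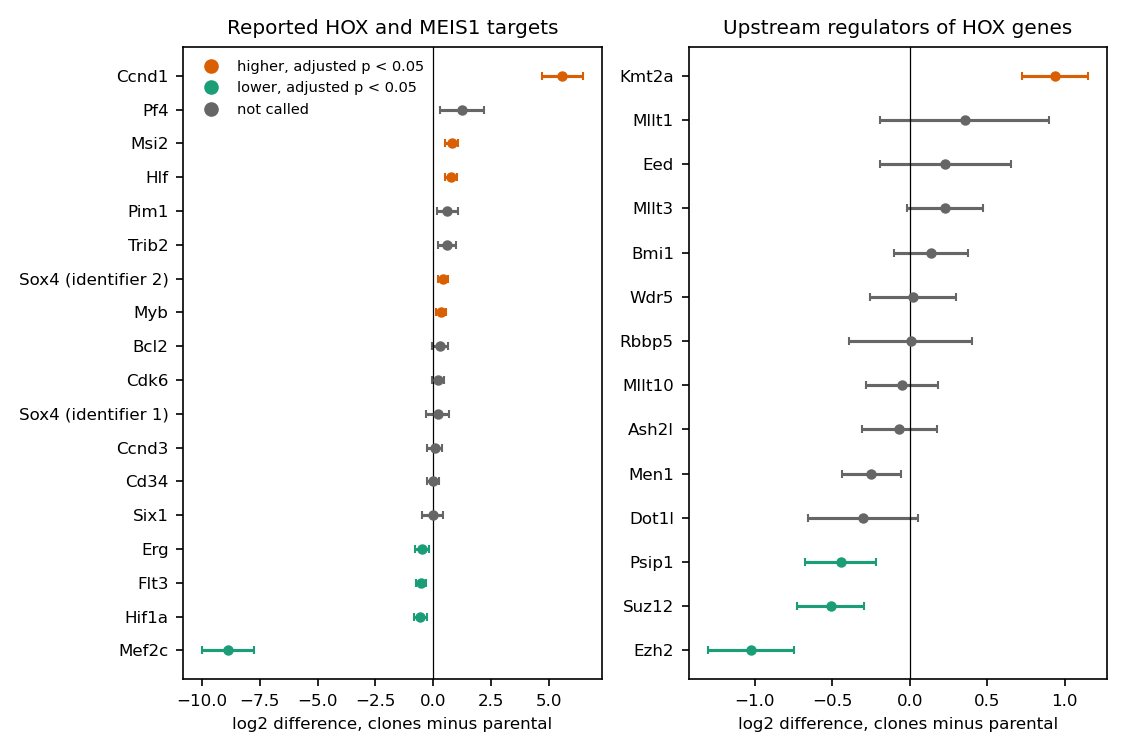
Log2 difference, clones minus parental, with 95% intervals from limma (horizontal axes, which differ in scale) for the tested genes of the list of reported HOX and MEIS1 targets (left) and of the list of upstream regulators of HOX genes (right). On the left Ccnd1, at 5.59, and Mef2c lie far outside the others, where the position of Mef2c, without a read in the clones, is set by the pseudocount and is no measured size; on the right Kmt2a is called higher and Ezh2, Suz12 and Psip1 lower.

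Of 17 genes that set or hold HOX expression, 14 were tested, with 1 higher, 3 lower and 10 not called, beside 7.51% higher and 8.49% lower over all tested genes, and a median log2 difference of -0.02. Kmt2a (MLL1), the methyltransferase that keeps HOX genes active, was at 2420, 2440 and 2302 in clones 12, 18 and 4 and at 1282 and 1214 in the parental libraries, so each clone was above both. It was 1.91-fold higher (log2 difference 0.94, SE 0.0923, adjusted p = 0.00097, limma), in all 16 alternatives. Ezh2, the methyltransferase of the Polycomb complex that silences HOX genes, was at 3351, 2945 and 2609 in clones 12, 18 and 4, against parental values of 5708 and 6342. It was 2.04-fold lower (log2 difference -1.03, SE 0.12, adjusted p = 0.00187, limma), also in all 16 alternatives.

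Suz12, another subunit of that complex, was 1.43-fold lower, and Psip1, which tethers MLL1 to chromatin, was 1.36-fold lower, with calls lost in 1 and 5 alternatives, each of the 4 single libraries clone 12, clone 18 and parental replicates 1 and 2 being enough to lose that of Psip1. Eed, the remaining core subunit on the list, was not called (log2 difference 0.23, adjusted p = 0.423, limma). Men1 and Dot1l, which act with MLL proteins on HOX genes, were not called either, at log2 differences of -0.25 and -0.30 (adjusted p = 0.079 and 0.226, limma). The caudal factors Cdx1, Cdx2 and Cdx4 had no read. In the Hoxb cluster itself neither tested gene, Hoxb8 or Hoxb7, passed, and Hoxb4 and Hoxb3 had too few reads to be tested this way.

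Some markers of other blood cells differed between the groups too, counted here beside 7.51% higher and 8.49% lower over all tested genes. Of the mast cell and basophil markers, 4 of 6 tested were higher in the clones (Ms4a2, Tpsb2, Mcpt8 and Il1rl1) and 2 not called (Cpa3 and Hdc). The summed normalized read count of all 10 came to 5441 to 8010 for clones and 1260 to 3490 for parental libraries. Most of that sum, in every library, was the uncalled Cpa3 and Hdc, so it does not measure the 4 called genes. Cpa3 read 2748, 3139 and 4388 for clones 12, 18 and 4, against parental values of 2450 and 386.2. Most of the gap between the parental sums was thus that of Cpa3. Tpsb2 was at 213.0, 361.4 and 75.9 in clones 12, 18 and 4 and had no read in either parental library. Fcer1a and Cma1, less read genes of that list, had 2 and 4 reads in clone 12 and 7 and 12 in clone 18, and none in clone 4 or in either parental library. Mcpt4 had 1 read, in clone 18, and Tpsab1 had 3 reads in clone 4 and 6 in parental replicate 2. The 7 megakaryocyte markers summed to 2061 to 3192 in the clones and 395.3 to 452.1 in the parental libraries, with 1 of 5 tested called higher. That 1, Itga2b, made up most of the sum in the clones (1783 to 2675 there, 195.8 and 222.7 in the parental libraries). The 4 uncalled genes went both ways. Log2 differences were 1.26 for Pf4 and 1.13 for Gp1ba, each with every clone above both parental libraries. They were -0.59 for Gp9 and -0.52 for Vwf, where the groups overlapped. The 8 neutrophil markers summed to 84.9 to 191.8 in the clones and 352.4 to 438.1 in the parental libraries, with 1 of 2 tested called lower, and Camp and Ly6g had no read anywhere. Among monocyte and macrophage markers 1 of 4 tested was higher (summed level 650.0 to 1106 in clones, 377.5 to 400.1 in parental cells). It was Adgre1, at 531.8 to 937.5 and at 153.8 and 190.5, while the uncalled Csf1r, Cd14 and Ly6c2 had log2 differences of -0.02, -0.64 and -3.83. Among erythroid markers the 1 tested was higher (47.6 to 87.4 and 3.11 to 8.40). Of the B cell markers 2 of 5 tested identifiers were lower (767.2 to 1038 and 1434 to 1536). Ebf1 was tested by more than 1 identifier, and its less read identifier was not called (adjusted p = 0.654, limma), with overlapping groups. The 1 tested T and NK cell marker was not called (55.4 to 74.5 and 59.0 to 83.7). The 9 progenitor markers held 3 higher, 1 lower and 5 not called (74010 to 78334 and 86126 to 94431). The lower sum of the clones went with a single uncalled gene, Mpo, which fell by more than the sum did. Mpo read 13845, 20009 and 7872 for clones 12, 18 and 4, against parental values of 42873 and 38610. Log2 differences were above 0 for 5 of the 9 progenitor markers and below 0 for 4, so the sum shows no fall across that list. The part of these markers in the values of Meis3, Hoxb4, Pbx4 and Tgif2 was not tested.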

How the data were processed

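RNA of 5 mouse libraries was used. The 8 human libraries of the series were not, since they are of another species and carry other gene identifiers. The deposited signal of a mouse table is, by its values and the labels, the number of reads on an Ensembl gene after the authors applied DESeq2 size factors. STAR 2.6.1, RSEM, DESeq2, hg19 and mm9 stand in the submitters' processing notes with no role given, while annotation and strand setting are not stated by any source used here. Groups and clone numbers came from the sample titles; the column headers number the 3 clones differently within the knock-in group. Whole reads were recovered from 100% of the values above 0, within a tolerance of 0.01. Within groups, libraries differed beyond counting noise, with chi-square values of 6.11 to 25.5 per degree of freedom.

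The test was limma 3.58.1 (trend and robust moderation) in R 4.3.3 on log2(value + 1) for genes with a mean of at least 10, with Benjamini-Hochberg adjustment over all 13132; edgeR 4.0.16 and DESeq2 1.42.0 on recovered reads were alternatives. The script was tested on simulated data. Fold changes on this scale understate those of genes with few reads, and the fold of a group without reads is a bound from 3 reads over the group. That bound takes the level of the other group as counted. Intervals from reads cover counting error only. Named were the 9 members, HOX genes with a read, the 12 TALE genes, up to 4 called genes per list with the smallest p, genes most like Hoxb8 and the member with the smallest p, and markers; the remaining called genes of the target list, other genes without a read, the uncalled regulators and markers and Esr1 were chosen after their values were seen. The file lists Kmt2a, Adgre1 and Spi1 as Mll1, Emr1 and Sfpi1. Members and lists were chosen with earlier results of these data known. The marker lists were progenitor, mast cell and basophil, neutrophil, monocyte and macrophage, erythroid, megakaryocyte, B cell, and T and NK cell. A few genes of these lists are not reported here. Sequences and coordinates are not given, since the reference used here is of another species.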

Additional observations from a re-analysis of the deposited data

How the results depend on the processing

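Hoxb8, Hoxb7, Meis1, Pbx2 and Pknox1 kept their direction and stayed uncalled in all 16 alternatives (other pseudocounts, minimums, scalings and tests, thinned parental reads, each library left out); Pbx3 turned to 0.00021 and Pbxip1 to -0.11 without parental replicate 2, in ranges of -0.37 to 0.00021 and -0.11 to 0.31 without single libraries. The number of members called was 0, but 1 with edgeR or DESeq2 on recovered reads (Meis3), 2 with edgeR over every gene with a read, added after the data were seen (Meis3 and Hoxb4), and 0 to 1 without single libraries. Over all genes 2101 were called, 1271 without limma's trend and robust options, 3532 with edgeR over every gene with a read, and 990 to 2115 without single libraries (1023 without clone 12, 990 without parental replicate 2). Of the TALE list 1 gene was higher, 2 with edgeR, DESeq2 or edgeR over every gene with a read, and 0 with no minimum or without the trend and robust options. Of the target list 5 were higher and 4 lower, 8 higher with edgeR over every gene with a read, 3 higher and 1 lower without the trend and robust options, and 3 to 6 higher and 1 to 4 lower without single libraries. Of the regulators 1 was higher and 3 lower, 1 lower without the trend and robust options, and 1 to 2 higher without single libraries (2 without parental replicate 1). The cause of these shifts was not tested. No paired analysis was possible because clones and parental libraries share no replicate number. Depth limits Hoxb4, Hoxb3, Meis2 and Meis3 most: 3 reads are worth 6.15 in clone 4 and 0.458 in parental replicate 2.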

Other observations

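Esr1, the gene of oestrogen receptor alpha, was well read in these cells, which are grown with beta-estradiol. Its normalized read count was 2165, 2669 and 2238 in clones 12, 18 and 4 and 3496 and 3353 in the parental libraries, each clone below both. It was 1.46-fold lower in the clones (log2 difference -0.54, SE 0.113, adjusted p = 0.0171, limma), a call lost without clone 12 (adjusted p = 0.0719), without parental replicate 1 or 2 (0.0671 and 0.0658) and without the trend and robust options (0.0743), in a range of 0.000216 to 0.0743 over its alternatives. The labels do not say whether the introduced HOXB8 is joined to a part of an oestrogen receptor, and reads from such a construct would not be separated here from those of the cells' own Esr1. The related Esr2 had no read.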
